A study of Mus musculus with 12 samples.

Results

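Teratomas grown from R1 mouse ES cells that expressed the Dnmt3L K412R mutant were compared with teratomas grown from R1 cells that carried the empty vector (ET). The comparison took all libraries titled K412R and all libraries titled ET, which are 6 of the 12 libraries of the series, 3 in each group. R1 is an established line of mouse ES cells, and a teratoma is the mixed tumour of differentiated tissues that such cells form in an immunodeficient mouse. Both groups carried the pEZ-LV235 lentiviral vector, in which the CAG promoter drives the insert. In the K412R group the insert was mouse Dnmt3L with arginine in place of a lysine. The study found that lysine acetylated in Flag-tagged Dnmt3L overexpressed in ES cells. In the ET group there was no insert. Both kinds of cells were selected with puromycin and injected under the skin of male NOD-PrkdcEM1 mice at 8 weeks of age. Teratomas for sequencing were taken at day 21, and their poly(A) RNA was counted per gene. The remaining 6 libraries, labelled wild-type (WT) or K238R Dnmt3L, entered the fit only to estimate the spread between replicates and are given beside a few results. Dnmt3l was at 163, 206 and 213 CPM (counts scaled to library size) in the libraries labelled WT. In those labelled K238R it was at 1.85, 1.12 and 0.526 CPM, within or below the ET range. The gene count therefore shows no raised level from a construct there and does not bear out the K238R label. The study describes other K412R cells, but the sources used here name no second, independently made line of either group for these teratomas. A difference between the injected cells that arose in culture cannot be told apart from one due to the construct. The labels do not say whether the 3 libraries of a group came from separate mice, and p-values measure only the spread between these libraries.

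Dnmt3L has no methyltransferase activity of its own. It binds the de novo enzymes Dnmt3A and Dnmt3B and stimulates them, is abundant in germ cells and ES cells, and is silenced in most differentiated tissue. It is best known for the methylation of imprinted genes in oocytes and of transposons in prospermatogonia. DNA methylation itself was not measured in these libraries.

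Total estimated counts were similar in all 6 libraries, from 16957677 to 17987009 in ET and from 17686327 to 17950246 in K412R. The ET libraries were less alike than the K412R libraries. Over the 500 genes of largest variance, the distance between libraries (root mean square of differences in log2 CPM, the count scaled to a fixed library size) was between 1.88 and 2.70 among the ET libraries and between 1.56 and 1.82 among the K412R libraries. ET replicate 2 was nearer to the K412R libraries, at 1.93, 2.14 and 1.94, than to ET replicate 1, at 2.19, or ET replicate 3, at 2.70. Values without ET replicate 2 are therefore given beside the results that it moved. Since this library was singled out by its nearness to K412R, leaving it out is expected to widen differences and lower p-values. Those values show how far a result depends on 1 library and are not support for a difference. The libraries held transcripts of several tissue types. Neuronal Tubb3 lay between 383 and 528 CPM and cartilage Col2a1 between 82.2 and 184 CPM. The liver gene Alb did not exceed 0.224 CPM and the yolk sac gene Afp did not exceed 1.40 CPM. The tested genes of the whole list of liver and yolk sac endoderm were summed at 606, 447 and 581 CPM in ET. In K412R they were summed at 648, 560 and 662 CPM. Alb and Afp alone therefore do not settle how much of such tissue was present.

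Dnmt3l, the gene of the construct, was high in each K412R library and low in each ET library. Its level was 2.19, 0.642 and 7.72 CPM in ET replicates 1 to 3 and 39.8, 39.5 and 24.9 CPM in K412R replicates 1 to 3. The groups did not overlap. The log2 fold change was 3.29 (SE 0.57), with an adjusted p of 0.219 in edgeR's quasi-likelihood test, and from 0.000144 to 0.812 across 19 alternative fits. The gene passed the adjusted threshold when ET replicate 2 was left out (2.83, adjusted p = 0.0298), when ET replicate 3 was (4.60, with 0.0291), and in DESeq2 with all libraries (3.30, with 0.00461). These are counts of the gene as a whole, in which transcripts of the vector and of the native gene cannot be told apart, and they do not show which form of the protein was encoded.

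Of 18405 genes that passed a filter on low counts, 0 passed an adjusted p of 0.05, which is 0% of those tested, although 1456 had an unadjusted p under 0.05. The lowest adjusted p was 0.207. The unadjusted threshold was met by 4.38% of genes with a higher level in K412R and by 3.53% with a lower level. A change of at least 2-fold with an unadjusted p under 0.05 was found for genes that were higher in K412R (0.706%) and for 159 that were lower (0.864%). All 3 K412R libraries lay above all 3 ET libraries for 5.87% of genes and below them for 5.40%. An arbitrary division of 3 against 3 libraries separates a gene in either direction with probability 0.1, so these shares are close to that. DESeq2 on the same libraries called 63 genes higher (0.342%) and 27 lower (0.147%) at an adjusted p under 0.05.

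With ET replicate 2 left out, edgeR called 228 of 18775 genes higher (1.21%) and 56 lower (0.298%) at an adjusted p under 0.05. At an unadjusted p under 0.05, 12.0% were higher and 8.75% lower. This fit shares all K412R libraries and the other ET libraries with the fit of all libraries, so the calls are no independent support. The library left out was also chosen for its nearness to K412R, so more calls are expected. Without ET replicate 1 edgeR called 0 genes, and without ET replicate 3 it called 1. For 111 of the 284 genes the 3 K412R libraries did not overlap with any of the 3 ET libraries, ET replicate 2 included. Over all genes tested with all libraries, 5.87% lay above and 5.40% below. The 284 were called on all of these libraries except ET replicate 2, so a raised share was to be expected. DESeq2 with all libraries and edgeR without ET replicate 2 shared 51 calls.

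The genes with the smallest p among those at least 2-fold higher in K412R included Enpp6, Pitx1, Dnmt3l, Vip, Ffar2, Sprr1a, Krt7, Bcas1, Krt6b, Krt6a and Pof1b. They were taken from the 60 genes that met the 2-fold criterion, had a mean of at least 1 CPM in a group and did not overlap between the groups. Enpp6, which encodes a choline phosphodiesterase of newly forming oligodendrocytes, was at 8.48, 7.30 and 6.71 CPM in ET and at 16.7, 24.0 and 17.7 CPM in K412R. Its log2 fold change was 1.38 (SE 0.20, adjusted p = 0.207; 0.0194 without ET replicate 2). The 3 ET values lay close together and every K412R value was well above them. Enpp6 was also above ET in the libraries labelled WT, at 11.3, 18.6 and 13.7 CPM, and K238R, at 15.5, 15.1 and 14.4 CPM. Pitx1, a homeobox gene of the hindlimb, pituitary and oral epithelium, was at 9.6, 12.7 and 8.45 CPM in ET and at 20.9, 18.8 and 22.6 CPM in K412R. Its log2 fold change was 1.02 (SE 0.17, adjusted p = 0.208; 0.00942 without ET replicate 2). Vip, which encodes a neuropeptide, was at 2.36, 1.93 and 1.80 CPM in ET and at 5.92, 9.62 and 5.96 CPM in K412R. Its log2 fold change was 1.82 (SE 0.323, adjusted p = 0.219; 0.0388 without ET replicate 2), and the groups did not overlap.

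**Figure D1:**
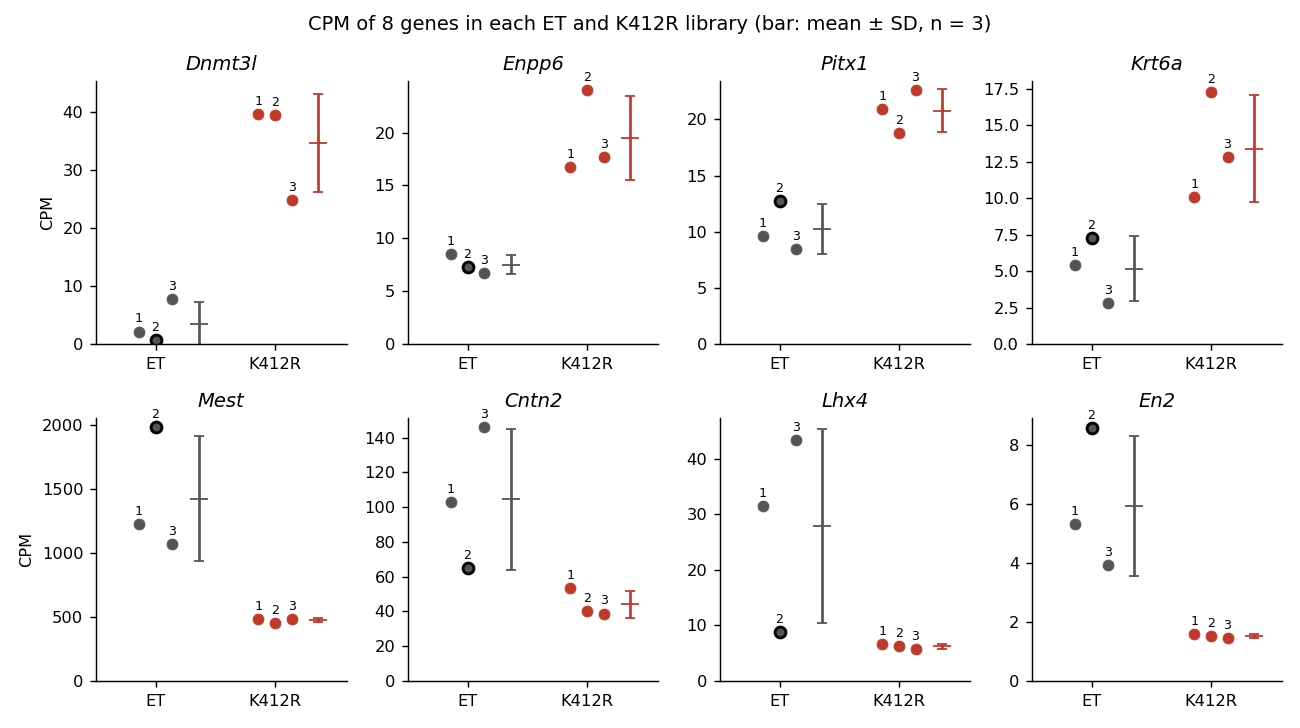
CPM of 8 genes in each library, with the replicate number beside each point and the mean ± SD (n = 3) at the right of each group. ET replicate 2 has a black rim, each axis starts at 0, and the ET error bar of Dnmt3l is cut at 0. The K412R points lie above all ET points for Dnmt3l, Enpp6, Pitx1 and Krt6a, and below all ET points for Mest, Cntn2, Lhx4 and En2.

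Genes of squamous epithelium formed the list with the highest median. Squamous epithelium is the layered lining of skin, mouth and oesophagus, whose basal cells express Trp63, Krt5 and Krt14 and whose outer cells build a cornified envelope. Of 33 genes on the list 27 passed the filter on low counts, 26 of them had a positive log2 fold change, and the median was 0.946, against -0.0189 over all genes tested. Of the 27, 17 (63.0%) had an unadjusted p under 0.05 with a higher level in K412R, against 4.38% of all genes, and 0 had one with a lower level. In bulk tissue, more cells of a type and more RNA per cell cannot be told apart, here and in the lists that follow. In sum, the 27 genes were at 282, 570 and 182 CPM in ET and at 560, 738 and 845 CPM in K412R. ET replicate 2 therefore lay within the K412R range, and the other 2 ET libraries below it.

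Sprr1a, a component of the cornified envelope, was at 0.505, 0.934 and 0.676 CPM in ET and at 2.05, 2.68 and 2.52 CPM in K412R (log2 fold change 1.77, SE 0.33, adjusted p = 0.264; 0.0290 without ET replicate 2). Krt6a, a keratin of stressed and oral epithelium, was at 5.45, 7.24 and 2.82 CPM in ET and at 10.1, 17.3 and 12.8 CPM in K412R (1.38, SE 0.32, adjusted p = 0.354; 0.0298 without ET replicate 2). In neither gene did the groups overlap. Under the label WT, Krt6a was at 11.5, 10.5 and 14.3 CPM, within the K412R range. Under the label K238R it was at 4.6, 4.41 and 2.84 CPM. Sprr1a did not exceed 1.3 CPM under either label. Krt6b is a close paralogue of Krt6a, and reads may have been divided between them. Its log2 fold change was 1.92. Ppl, which encodes the desmosomal envelope protein periplakin, was at 15.6, 20.3 and 11.6 CPM in ET and at 29.6, 24.2 and 37.7 CPM in K412R.

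Without ET replicate 2 the median of the list was 1.28, and 9 of its genes passed an adjusted p of 0.05, all of them higher in K412R, against 1.21% of all genes. These were Trp63, Krt14, Krt6a, Krt17, Sprr1a, Dsp, Pkp1, Evpl and Ppl, of which those other than Krt6a, Krt17, Sprr1a and Ppl are named here because they were called. The largest changes in that fit with no overlap of the groups, beside Dnmt3l, included further epithelial genes. Tmprss11b, a serine protease of squamous epithelium, had a log2 fold change of 2.26, Edar, the ectodysplasin receptor of skin appendages, 2.17, and Trim29, 1.98. Krt17, a keratin of basal and appendage cells, had 1.92. In Trim29 and Krt17 ET replicate 2, at 6.54 and 11.6 CPM, stood nearer to the lowest K412R libraries, at 7.64 and 12.3 CPM, than to the other ET libraries, which did not exceed 2.92 and 4.83 CPM. Krt7, a keratin of simple and glandular epithelium, was at 17.3, 32.9 and 17.5 CPM in ET and at 46.6, 47.4 and 62.3 CPM in K412R (1.21, adjusted p = 0.264; 0.00819 without ET replicate 2). It was at 40.3, 39 and 47.5 CPM under the label WT and at 18.6, 22.4 and 24.4 CPM under the label K238R. The list of intestinal and glandular epithelium had a median of 0.479, with 6 of 22 tested genes (27.3%) higher in K412R before adjustment, against 4.38% of all genes. When ET replicate 2 was left out 1 of the 22, Krt19, was called, against 1.21%, which is no result about the list.

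Genes of motile cilia, which beat on ependymal, airway and oviduct epithelium, followed ET replicate 2 more strongly still. With all libraries 30 of 34 tested genes had a positive log2 fold change, the median was 0.302, and 5 (14.7%) were higher in K412R at an unadjusted p under 0.05, against 4.38% of all genes. The summed level was 962, 1287 and 884 CPM in ET and 1060, 1239 and 1299 CPM in K412R, so ET replicate 2 was as high as the upper K412R libraries. The median was 0.126 without ET replicate 3. Without ET replicate 2, the median was 0.757, 27 genes had an unadjusted p under 0.05 with a higher level in K412R, against 12.0% of all genes, and 5 passed the adjusted threshold, against 1.21%, among them Foxj1 and Mcidas, regulators of the multiciliated fate that are named because they were called. Dnah5, which encodes a dynein of the outer arm of the cilium and lies on chromosome 15, was at 9.09, 22.4 and 8.96 CPM in ET and at 20.4, 29.8 and 38.7 CPM in K412R.

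Genes of myelinating glia were also higher in K412R, and here ET replicate 2 did not stand apart. Oligodendrocytes and Schwann cells wrap axons of the central and of the peripheral nervous system. All 22 genes of the list were tested, 21 had a positive log2 fold change, and the median was 0.678. An unadjusted p under 0.05 with a higher level in K412R was found for 14 (63.6%), against 4.38% of all genes, and none passed the adjusted threshold in edgeR, with all libraries or with ET replicate 2 left out, where 13 of the 22 had an unadjusted p under 0.05 with a higher level, against 12.0%. DESeq2 called 4 of them higher, against 0.342% of all genes, among which were Sox10, Mbp and Ugt8a. Mbp, a major protein of compact myelin, had a mean of 116 ± 14.8 CPM (SD, n = 3) in ET, with the highest library at 131 CPM, and was at 192, 371 and 178 CPM in K412R (log2 fold change 1.09, SE 0.26, adjusted p = 0.354; 0.109 without ET replicate 2). The groups did not overlap, and K412R replicate 2 was far above the other K412R libraries. The same library had the highest summed level of the list, 1223 CPM, against 779 and 754 CPM in the other K412R libraries and 490 to 612 CPM in ET. Without K412R replicate 2 the median of the list was 0.381. Bcas1, a marker of early myelinating oligodendrocytes, was at 79.8, 65.0 and 53.4 CPM in ET and at 127, 192 and 110 CPM in K412R. Ugt8a, which makes the myelin lipid galactosylceramide, was at 13.2, 9.34 and 10.5 CPM in ET and at 18.7, 21.1 and 16.7 CPM in K412R. The glial regulator Sox10 was at 39.6, 27.3 and 27.6 CPM in ET and at 53.4, 78.4 and 48.3 CPM in K412R. In the libraries labelled WT, Mbp was at 177, 261 and 217 CPM and Bcas1 at 88.8, 124 and 93.5 CPM. In those labelled K238R they were at 183, 245 and 186 CPM and at 111, 140 and 124 CPM. Mbp, Bcas1 and Ugt8a lay above all ET libraries in each of the other groups. Their difference from ET was therefore not particular to K412R. Sox10 overlapped with ET under the label WT. Lists of neurons and synapses and of astrocytes and radial glia had medians of -0.0661 and 0.00885, and without ET replicate 2 of 0.289 and 0.201.

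**Figure D2:**
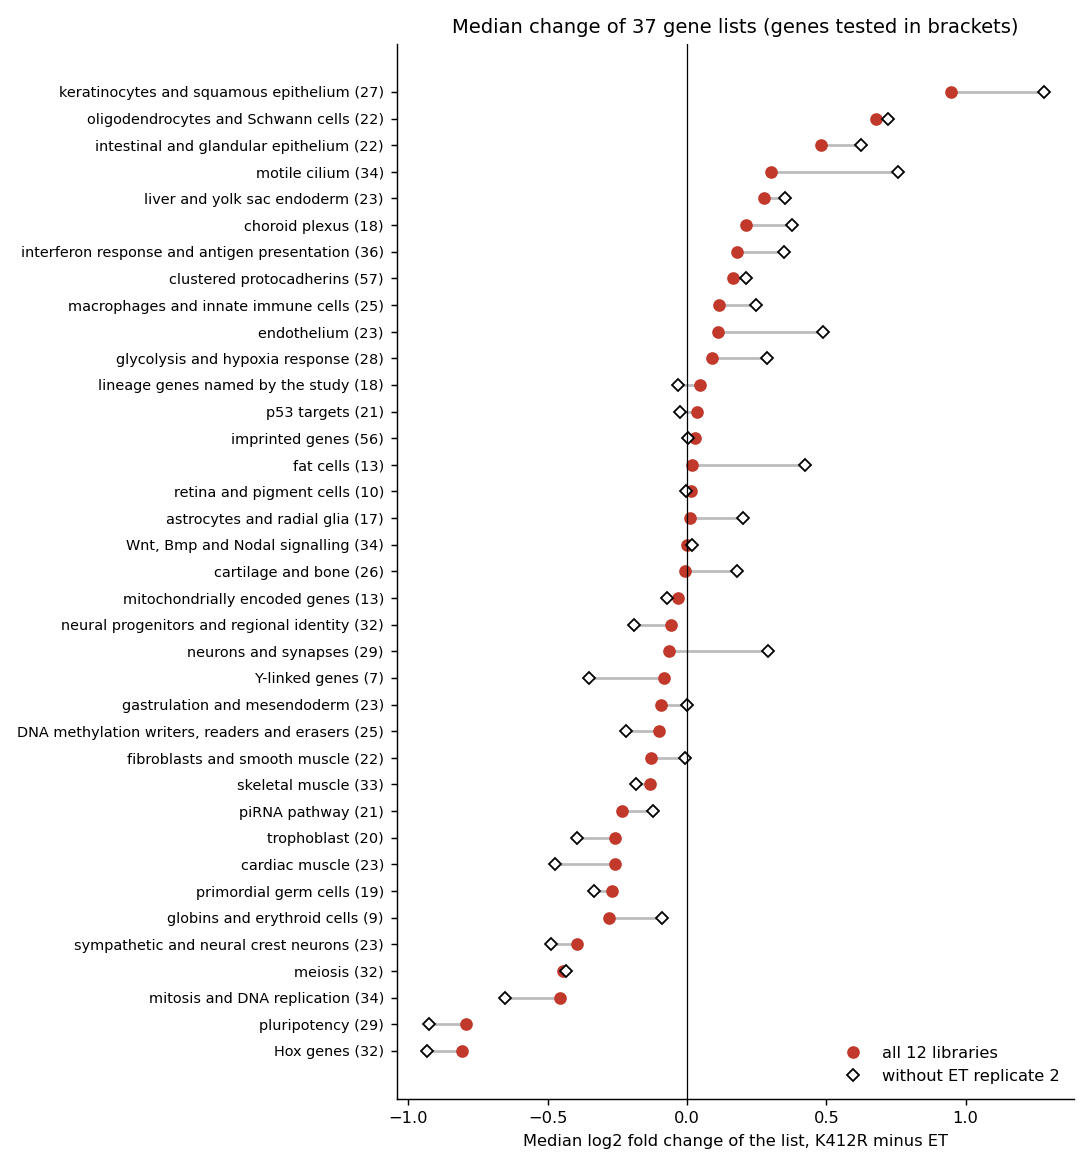
Median log2 fold change, K412R minus ET, of the tested genes on each of 37 lists, with all libraries (red circles) and without ET replicate 2 (open diamonds). The number of tested genes is in brackets. Squamous epithelium (0.946) and myelinating glia (0.678) are at the top, and Hox genes (-0.808) and pluripotency genes (-0.794) at the bottom.

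The genes with the smallest p among those at least 2-fold lower in K412R were 9030624G23Rik, Mest, Dbh, Ccnb1ip1, Cntn2, D030074P21Rik, LOC108169181, Rsc1a1, En2, Lhx4, Dnm3os and Alms1-ps2. They were taken from 58 genes chosen by the same conditions. Cntn2, a cell adhesion molecule of growing axons, was at 103, 64.8 and 146 CPM in ET and at 53.2, 40.2 and 38.8 CPM in K412R (log2 fold change -1.25, SE 0.26, adjusted p = 0.288; 0.0145 without ET replicate 2). Lhx4, a LIM homeobox gene of motor neurons and pituitary, was at 31.5, 8.88 and 43.3 CPM in ET and at 6.71, 6.24 and 5.75 CPM in K412R (-2.16, SE 0.485, adjusted p = 0.342; 0.0117 without ET replicate 2). En2, a homeobox gene of the midbrain and cerebellum, was at 5.33, 8.58 and 3.95 CPM in ET and at 1.59, 1.52 and 1.45 CPM in K412R (-1.96, SE 0.42, adjusted p = 0.291; 0.0792 without ET replicate 2). The groups did not overlap in any of the 3 genes, but in Lhx4 ET replicate 2 was far closer to K412R than to the other ET libraries.

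Dbh, which converts dopamine to noradrenaline in sympathetic neurons, was at 2.92, 4.73 and 1.52 CPM in ET and did not exceed 0.525 CPM in K412R (-2.87, SE 0.58, adjusted p = 0.266). In the list of sympathetic and neural crest neurons, genes differed in both directions, more of them lower. Of 23 tested genes 14 had a negative log2 fold change, with a median of -0.394, and of -0.602 to -0.312 across 19 alternatives. Before adjustment 4 (17.4%) were lower, against 3.53% of all genes, and 2 (8.7%) higher, against 4.38%. When ET replicate 2 was left out, Chrna3, a nicotinic receptor subunit of autonomic ganglia, was called lower and Ret higher. Chrna3 was at 22.2, 5.78 and 28.3 CPM in ET and between 5.75 and 6.61 CPM in K412R, so ET replicate 2 lay within the K412R range. In the fit without ET replicate 2, the largest falls with no overlap were those of Alms1-ps2, LOC108169181, Neurog3, Lhx4, Pou4f2, Cntn2, Gm33532, Mest, Tex13b and Ebf1, with log2 fold changes from -4.03 to -1.17. Neurog3, a proneural factor best known in the endocrine pancreas, was at 1.46, 0.292 and 2.54 CPM in ET and did not exceed 0.233 CPM in K412R. Pou4f2, a factor of retinal and sensory neurons, was at 3.14, 1.52 and 4.51 CPM in ET and at 0.967, 0.699 and 0.698 CPM in K412R. Ebf1, a factor of B cells and of several neuronal types, was at 61.7, 36.6 and 70.3 CPM in ET and at 32.8, 25.6 and 28.3 CPM in K412R. Some of these genes were also below ET replicates 1 and 3 under the label WT. There Neurog3 was at 0.5, 0.113 and 0 CPM and Pou4f2 at 0.555, 0.68 and 1.19 CPM. Lhx4 was at 10.7, 7.48 and 8.09 CPM and Chrna3 at 11.1, 7.36 and 6.19 CPM. Cntn2, Ebf1, Dbh and En2 lay above all K412R libraries under that label.

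Rsc1a1 was listed at 0 in all 3 K412R libraries, and at 51, 125 and 109 estimated counts in the ET libraries. With a floor of 3 counts over the K412R group, its level was at least 96.2-fold lower in K412R. In RefSeq the gene lies within the span of Ddi2, and K238R replicate 1 was also listed at 0, so the estimate may depend on how reads were divided between the 2 genes. LOC108169181 fell from 7.58, 4.26 and 7.95 CPM in ET to 0.171, 1.46 and 0 CPM in K412R in the fit without ET replicate 2 (log2 fold change -3.83, adjusted p = 0.0454).

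Hox genes, which specify position along the body axis, were the list with the lowest median. Of 39 genes 32 were tested, 31 had a negative log2 fold change, and the median was -0.808. At an unadjusted p under 0.05, 10 (31.2%) were lower in K412R, against 3.53% of all genes, and none was higher. All 3 K412R libraries lay below all ET libraries for 8 of the 32, against 5.40% of all genes. None passed the adjusted threshold in edgeR, with or without ET replicate 2, or in DESeq2. Genes of a Hox cluster are neighbours and share their regulation, so they are not independent observations.

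By position in the clusters the values were as follows, with no test of the difference between positions. The 10 tested genes of paralogue groups 9 to 11, which mark the posterior trunk, had a median of -1.82 and were summed at 29.5, 38.4 and 10.8 CPM in ET and at 4.89, 6.18 and 8.81 CPM in K412R. The K412R and ET libraries did not overlap. The 11 genes of groups 5 to 8 had a median of -0.688. The 11 genes of groups 1 to 4, which mark the hindbrain and neck, had a median of -0.453 and were summed at 342, 72.8 and 263 CPM in ET and at 172, 185 and 146 CPM in K412R, where ET replicate 2 was the lowest of all 6 libraries. Without ET replicate 2 the medians were -1.43, -0.826 and -0.88 for groups 9 to 11, 5 to 8 and 1 to 4. The division into these groups was chosen after the values were seen. Hoxb9 was at 4.04, 4.79 and 2.82 CPM in ET and at 0.683, 1.17 and 1.24 CPM in K412R (log2 fold change -1.91, SE 0.60, adjusted p = 0.462). Hoxc10, which lies on chromosome 15, was at 6.01, 9.81 and 2.14 CPM in ET and at 1.31, 1.28 and 1.83 CPM in K412R (-2.01, SE 0.66, adjusted p = 0.488). Hoxd4 was at 3.99, 2.45 and 1.69 CPM in ET and did not exceed 1.24 CPM in K412R. Hoxd10 overlapped between the groups, since ET replicate 3 was at 0.225 CPM and K412R replicate 3 at 0.698 CPM.

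Genes of mitosis and DNA replication all had a negative log2 fold change, in 34 of 34 tested genes, with a median of -0.456. Only Cenpf and Mcm3 had an unadjusted p under 0.05, which is 5.88% of the list, against 3.53% of all genes with a lower level. The summed level of the list was 2802, 1869 and 4227 CPM in ET and 2252, 2096 and 2086 CPM in K412R. The ET libraries thus lay on both sides of the K412R libraries, which were close to one another. Without ET replicate 2, 24 of the 34 genes had an unadjusted p under 0.05 with a lower level in K412R, against 8.75% of all genes, and none passed the adjusted threshold. Without ET replicate 3 the median was -0.129. Mcm3, a subunit of the replicative helicase, was at 95.9, 91.4 and 169 CPM in ET and at 76.9, 77.5 and 70.6 CPM in K412R.

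Pluripotency genes had a median of -0.794, with 26 of 29 genes negative. At an unadjusted p under 0.05, 2 (6.9%) were lower and 2 (6.9%) higher in K412R, against 3.53% and 4.38% of all genes. Those higher were Klf5 and Klf4, which are also expressed in epithelium. Klf5 was at 41.9, 63.8 and 37.8 CPM in ET and at 73.2, 64.5 and 76.9 CPM in K412R. The list was highest in ET replicate 3, where it was summed at 747 CPM, against 471 and 486 CPM in the other ET libraries and 442 to 491 CPM in K412R. Without ET replicate 3 the median was -0.328. Pou5f1, the pluripotency factor Oct4, was at 23.1, 30.0 and 49.8 CPM in ET and at 25.1, 21.6 and 16.7 CPM in K412R. Genes of meiosis had a median of -0.447, with 3 of 32 tested genes (9.38%) lower at an unadjusted p under 0.05, and genes of primordial germ cells -0.271, with 1 of 19 (5.26%), against 3.53% of all genes. Leaving out ET replicate 2 gave 11 of 32 meiosis genes and 2 of 19 germ cell genes lower, against 8.75%. Dazl, an RNA-binding protein of germ cells, was at 24.9, 3.09 and 34.4 CPM in ET and at 3.30, 8.10 and 4.19 CPM in K412R, and ET replicate 2 was the lowest of all 6. The 23 tested genes of cardiac muscle had a median of -0.260, with 2 (8.7%) lower at an unadjusted p under 0.05. The 33 of skeletal muscle had a median of -0.133, with 1 (3.03%) lower, against 3.53% of all genes. The 18 lineage genes that the study named on these teratomas had a median of 0.0477. At an unadjusted p under 0.05, 4 (22.2%) were higher and 2 (11.1%) lower, against 4.38% and 3.53% of all genes. That list was chosen on these samples and is no independent evidence of a direction. Endothelial genes had a median of 0.110, and 0.489 when ET replicate 2 was left out, where 13 of 23 were higher before adjustment, against 12.0% of all genes. Macrophage genes had a median of 0.114, and 0.249 when that library was left out, with Ptprc between 7.95 and 9.34 CPM in all 6 libraries.

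**Figure D3:**
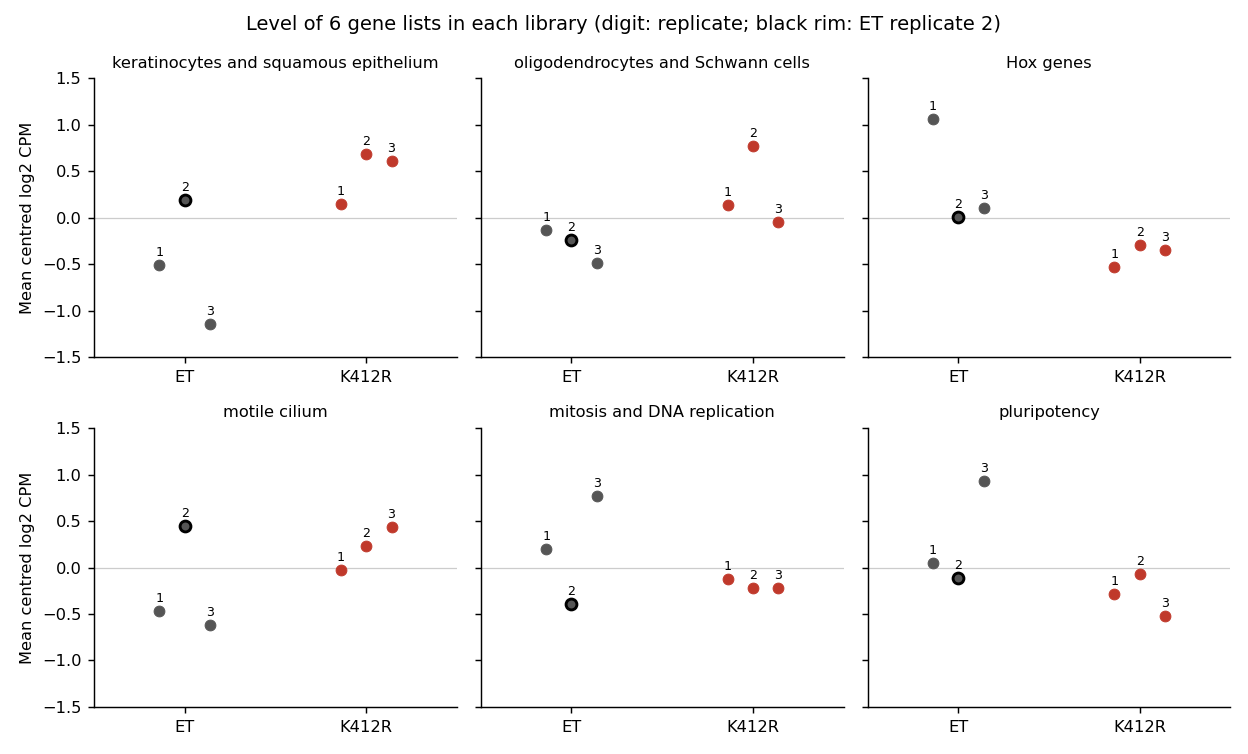
Mean over the tested genes of 6 lists of log2 CPM centred on each gene's mean over the 6 libraries. Numbers give the replicate, and ET replicate 2 has a black rim. The groups do not overlap for Hox genes and myelinating glia, and ET replicate 2 lies within the K412R range or beyond it for squamous epithelium, cilia, mitosis and pluripotency.

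Imprinted genes, whose expression depends on the parent of origin, were examined because Dnmt3L is required for maternal imprints. Of 56 tested genes 29 had a positive and 27 a negative log2 fold change, and the median was 0.0295. At an unadjusted p under 0.05, 4 were higher and 5 lower, against 4.38% and 3.53% of all genes. When ET replicate 2 was left out, 11 were higher and 6 lower, against 12.0% and 8.75%, and the median was 0.00504. The clearest difference was in Mest, a paternally expressed gene of mesoderm that encodes a hydrolase-like protein of the endoplasmic reticulum. Mest was at 1230, 1982 and 1067 CPM in ET and at 486, 456 and 485 CPM in K412R. The K412R values were within a narrow range, and the groups were far apart. The log2 fold change was -1.58 (SE 0.27, adjusted p = 0.208), and the gene passed the adjusted threshold when ET replicate 2 was left out (-1.25, adjusted p = 0.0362) and with DESeq2 (adjusted p = 2.55e-05). Across all alternatives the log2 fold change lay between -1.75 and -1.25 and the adjusted p between 2.55e-05 and 0.611. In the other 6 libraries Mest was at 1817, 2655 and 2737 CPM in the libraries labelled WT and at 1191, 2356 and 1599 CPM in those labelled K238R, which had no raised Dnmt3l, so the 3 K412R libraries were the lowest of the series. Mest is also expressed in embryonic mesoderm, and the lists of fibroblasts and smooth muscle and of skeletal muscle had medians of -0.131 and -0.133. Their part in the result was not tested.

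Klf14, a maternally expressed gene of the same imprinted domain on chromosome 6, differed the other way. It was at 0.842, 1.17 and 0.564 CPM in ET and at 2.90, 2.56 and 2.74 CPM in K412R, with no overlap (log2 fold change 1.67, SE 0.41, adjusted p = 0.369; 0.0577 without ET replicate 2; 0.0450 with DESeq2). In the other libraries it was between 1 and 2.44 CPM under the label WT and between 0.582 and 1.45 CPM under the label K238R. Copg2os2, an antisense transcript of the domain, was listed at 0 in all 3 K412R libraries, at 36 and 96 estimated counts in ET replicates 1 and 2, and at 0 in ET replicate 3. The groups therefore overlap. Copg2, which lies between Mest and Klf14 and is named after its values were seen, was at 60.2, 62.6 and 66.8 CPM in ET and at 76.0, 69.8 and 72.0 CPM in K412R, and Cep41, on the other side of Mest, at 12.9 to 15.2 CPM and 13.8 to 14.8 CPM. Overlapping and antisense transcripts may have shared reads here, since no source used states whether strand was used in counting. Among other imprinted genes Dhcr7, an enzyme of cholesterol synthesis, was at 40.6, 32.5 and 39.8 CPM in ET and at 25.3, 29.7 and 27.4 CPM in K412R (-0.45, adjusted p = 0.377; 0.0448 without ET replicate 2).

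The promoter of Mest is shown because it is known to be methylated on the maternal allele, at CG dinucleotides. RefSeq (GRCm38.p6) gives Mest starts on the plus strand of chromosome 6, and windows of 300 bases at an upstream and a downstream start are printed 5′ to 3′, with each CG in capitals.
Mest upstream start, chr6:30733256-30733555: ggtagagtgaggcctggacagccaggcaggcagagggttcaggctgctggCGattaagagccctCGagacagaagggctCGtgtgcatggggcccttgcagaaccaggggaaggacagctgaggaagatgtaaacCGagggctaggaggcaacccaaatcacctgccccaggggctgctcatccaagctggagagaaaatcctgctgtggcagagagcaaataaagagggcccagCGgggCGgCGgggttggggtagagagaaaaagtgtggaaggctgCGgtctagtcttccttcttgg
Mest downstream start, chr6:30737800-30738099: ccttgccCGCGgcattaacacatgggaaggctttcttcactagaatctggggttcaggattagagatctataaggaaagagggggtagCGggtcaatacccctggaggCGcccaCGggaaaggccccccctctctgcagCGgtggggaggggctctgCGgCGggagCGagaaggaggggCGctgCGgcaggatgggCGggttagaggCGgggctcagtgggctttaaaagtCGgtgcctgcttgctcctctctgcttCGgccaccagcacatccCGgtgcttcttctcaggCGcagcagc
The upstream window holds 8 CG and the downstream window 17, and 48.6% and 31.4% of the 32851 RefSeq windows of the same length hold as many or more. The median was 7 CG over all these windows, and 20 over the promoter windows of the tested genes (quartiles 10 and 29). This describes the sequence only, and the sources used here do not say which of these windows carries the maternal methylation.

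Of 25 tested genes that write, read or erase DNA methylation, 20 had a negative log2 fold change, and the median was -0.0994. At an unadjusted p under 0.05, 1 (4%) was lower, against 3.53% of all genes. Leaving out ET replicate 2 gave a median of -0.218 and 7 genes lower before adjustment, against 8.75% of all genes, and none passed the adjusted threshold. The gene with all libraries was Zfp57, a zinc finger protein that protects imprints in the early embryo, at 111, 105 and 114 CPM in ET and at 95.4, 85.3 and 90.4 CPM in K412R (-0.28, SE 0.08, adjusted p = 0.425; 0.116 without ET replicate 2). The difference was small, but the groups did not overlap. Dnmt1, the maintenance methyltransferase, was at 184, 174 and 252 CPM in ET and at 177, 165 and 162 CPM in K412R, and its partner Uhrf1 at 61.5, 48.5 and 94.9 CPM and at 50.1, 43.3 and 46.0 CPM. Both overlapped between the groups, and ET replicate 3, which had the highest level of both, also had the highest level of the mitosis list. Clustered protocadherins, whose promoters are chosen by methylation in neurons, had a median of 0.165, with 42 of 57 genes positive and 7 (12.3%) higher at an unadjusted p under 0.05, against 4.38% of all genes. Leaving out ET replicate 2 gave 14 of 57, against 12.0%, and 1 adjusted call. As neighbours in clusters, these genes are not independent observations either.

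Differences were also summarized by chromosome, as the median over its genes of log2 CPM centred on each gene's mean over the 12 libraries, less the same median over all placed genes. Chromosome 15 was higher in K412R. Over 641 genes its value was 0.0368, -0.106 and 0.0143 in ET and 0.132, 0.193 and 0.165 in K412R, a difference of 0.181 on the log2 scale, or 1.13-fold. The groups did not overlap, and the highest of the 9 libraries of the other constructs was at 0.0368. The exact two-sided permutation test gave p = 0.1 for 3 against 3, the smallest that design allows, and p = 0.00909 for the K412R libraries against the other 9, the smallest possible there (0.0909 after adjustment over 20 chromosomes). Chromosomes 15 and 1 were already known from these data to differ between the K412R and WT libraries, and the latter are among the 9. The p-values of these chromosomes are therefore no independent support. Without ET replicate 2 the difference was 0.138. Of the genes tested on this chromosome 76.8% had a positive log2 fold change, against 43.0% to 50.6% on the 18 chromosomes other than 1 and 15, and 18.7% were higher at an unadjusted p under 0.05, against 2.65% to 5.81%. Of the 63 genes that DESeq2 called higher, 22 (34.9%) lay on chromosome 15, which holds 3.93% of the genes tested. In edgeR without ET replicate 2, chromosome 15 held 22 of the 228 genes called higher and 2 of the 56 called lower.

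**Figure D4:**
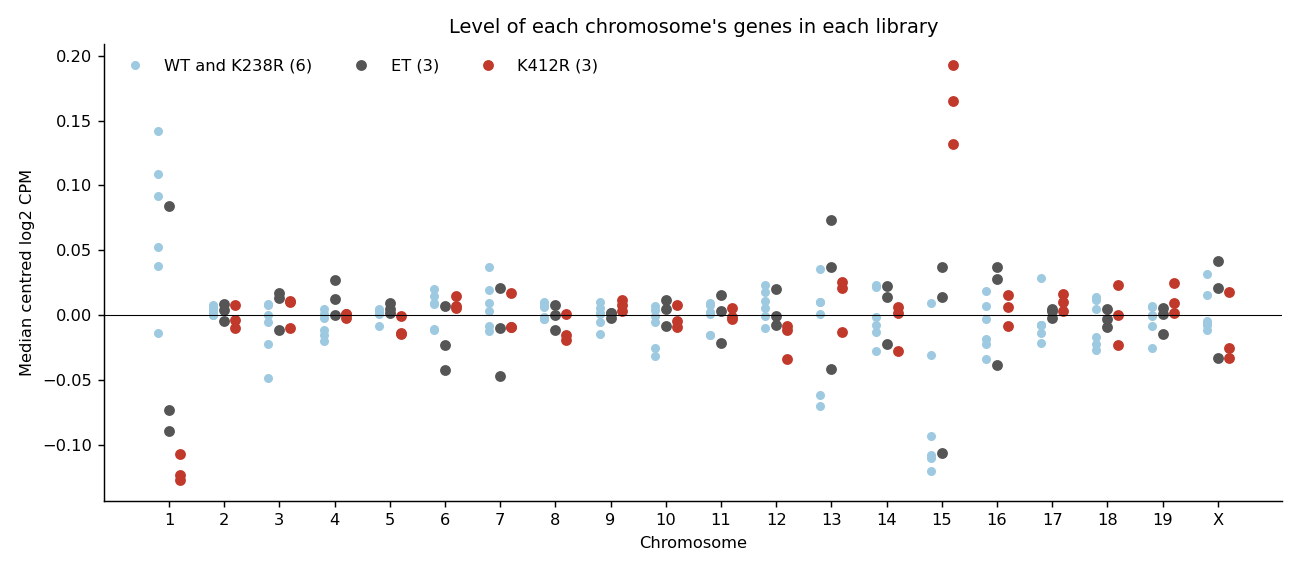
Level of each chromosome in each library, as the median over its genes of centred log2 CPM less that of all placed genes. ET is in grey, K412R in red and the 6 WT and K238R libraries in blue. The 3 K412R libraries are at 0.132 to 0.193 on chromosome 15, above the other 9, and at the lower end on chromosome 1.

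The shift ran along the whole of chromosome 15. When its genes were divided by their order into 8 blocks of 80 or 81, the difference between K412R and ET was between 0.118 and 0.205 in each block. The genes of smallest p on the chromosome included Fbxo32, Krt7, Sdc2 and Tst. Fbxo32, a ubiquitin ligase of muscle wasting, had a mean of 19.7 ± 0.615 CPM (SD, n = 3) in ET and was at 32.4, 28.3 and 36.7 CPM in K412R (log2 fold change 0.73, SE 0.12, adjusted p = 0.208; 0.028 without ET replicate 2). Sdc2, a membrane proteoglycan, was at 65.6, 70.6 and 70.3 CPM in ET and at 95.6 ± 9.48 CPM (SD, n = 3) in K412R, where the lowest library was at 84.7 CPM. Tst, a mitochondrial sulphur transferase, was at 15.1, 16.7 and 11.8 CPM in ET and at 23.4, 26.5 and 24.7 CPM in K412R. In each of Fbxo32, Sdc2 and Tst all K412R values were above all ET values.

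Chromosome 1 was lower in K412R, by a smaller amount. Over 953 genes its value was -0.0732, 0.0842 and -0.0889 in ET and -0.107, -0.127 and -0.123 in K412R. The difference was -0.0929, and -0.0378 without ET replicate 2. Among all other libraries the lowest value was -0.0889 and the highest 0.142. The exact p-values were those of chromosome 15. An adjusted value of 0.0909 was also found for chromosomes 5 and 12, with differences of -0.0147 and -0.0219. Of the genes tested on it 32.7% had a positive log2 fold change, and 14.1% were lower at an unadjusted p under 0.05, against 2.07% to 3.77% on the other 18 chromosomes. Of the 27 genes that DESeq2 called lower, 9 (33.3%) lay on chromosome 1, which holds 5.84% of the genes tested. In edgeR without ET replicate 2, chromosome 1 held 9 of the 56 genes called lower and 14 of the 228 called higher. Among the 5 genes of smallest p were Cntn2 and Lhx4, given above, and Ipo9, a nuclear import receptor, at 263, 268 and 287 CPM in ET and 228, 204 and 200 CPM in K412R, and Pik3c2b, a lipid kinase, at 42.0, 39.0 and 44.2 CPM and at 32.1, 27.4 and 26.5 CPM. Serpine2, a protease inhibitor on the same chromosome, differed the other way, at 339, 388 and 266 CPM in ET and at 489, 480 and 502 CPM in K412R. In the last 4 blocks of chromosome 1 the difference was between -0.187 and -0.131, whereas in the 4 before them it ranged from -0.126 to 0.0295. On the other 18 chromosomes the difference lay between -0.0234 and 0.0284. DNA copy number was not measured in these samples.

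**Figure D5:**
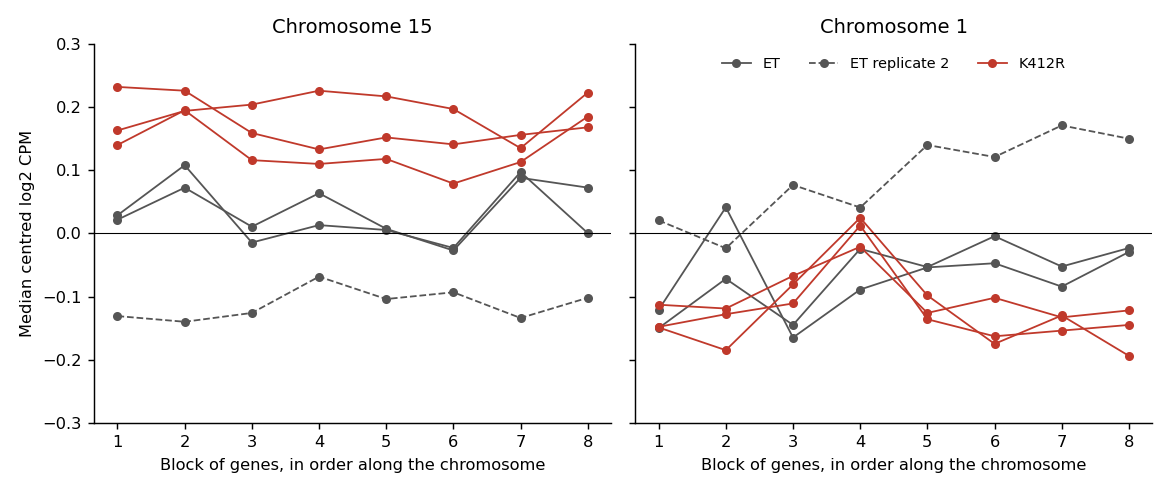
Level of 8 blocks of genes in order along chromosomes 15 and 1, on the same scale as the chromosome values, in each ET (grey) and K412R (red) library. ET replicate 2 is dashed. On chromosome 15 each K412R library is above all ET libraries in every block, and on chromosome 1 the groups separate in the last 4 blocks and in block 2.

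Some listed genes lie on these chromosomes. With genes of chromosomes 1 and 15 left out, the median was 0.754 over 21 genes of squamous epithelium, of which 20 were positive, 0.596 over 20 genes of myelinating glia, of which 19 were positive, and -0.575 over 25 Hox genes, of which 1 was positive. Krt6a, Krt6b, Krt7 and Sox10 lie on chromosome 15, and Sprr1a, Ppl, Mbp and Enpp6 do not.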

How the data were processed

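Poly(A) RNA of 12 teratomas was sequenced (CORALL RNA-Seq V2). According to the submitters' processing notes and the study's methods, fastp, STAR and Salmon were used with build GRCm39, with versions not given in the sources used here. The estimated counts per gene deposited by the authors were whole numbers for 38986 genes and were used as they stood. Total counts set the precision of low genes.

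Groups came from sample titles. Counts of all 12 libraries were fitted with edgeR 4.0.16 (filterByExpr, TMM, robust quasi-likelihood test, R 4.3.3), with the K412R against ET contrast and Benjamini-Hochberg adjustment over all genes tested; DESeq2 1.42.0 was an alternative, and the fit was tested on simulated data. CPM values use TMM library sizes. Chromosomes and gene order came from RefSeq (GRCm38.p6), which placed 96.7% of tested genes, and no coordinates were transferred. Chromosome tests were exact permutation tests.

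Genes named are Dnmt3l, the 12 ranked first by p in each direction by edgeR (at least 2-fold, unadjusted threshold 0.05, mean of at least 1 CPM in a group, no overlap), the 10 of largest fold in each direction among adjusted calls without ET replicate 2 under the same conditions, at most 4 of smallest p in a list, and 5 on each of 2 chromosomes. Some genes that this rule names are not reported here. Others are said to be chosen after their values were seen or because they were called. The comparison, the gene lists and tests were chosen with earlier results of these data known. A gene, Gm26917, took 7.47% to 13.9% of the counts of the 6 libraries.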

Additional observations from a re-analysis of the deposited data

How the results depend on the processing

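The 0 genes past an adjusted p of 0.05 became 90 with DESeq2 (63 higher), 1 without a filter on low counts, and 0 to 284 when 1 of the 12 libraries was left out. The highest count was without ET replicate 2, and without ET replicate 3 the count was 1. The number at least 2-fold changed with an unadjusted p under 0.05 was 289, 595 without the filter, and 225 to 852 when 1 library was left out. Fits of the 2 groups alone and with other size factors also called 0 genes. Among alternatives chosen after seeing the data, the 2 groups alone without ET replicate 2 gave 798 adjusted calls (435 higher) and 834 at 2-fold, and DESeq2 without ET replicate 2 gave 1086 (689 higher) and 769. The cause of these differences was not tested. Dnmt3l had a log2 fold change of 3.30 with DESeq2, 2.81 with DESeq2 without ET replicate 2, both past the adjusted threshold, and 2.83 to 4.60 when 1 library was left out. In the 2 groups alone without ET replicate 2 its adjusted p was 0.0716. The chromosome 15 difference was 0.138 to 0.209 and that of chromosome 1 -0.124 to -0.0378 when 1 library was left out. Replicate numbers did not pair the libraries, since the correlations of deviations between same-numbered K412R and ET libraries were 0.0300, -0.0119 and -0.0959. With a replicate block 0 genes passed the adjusted threshold and Dnmt3l had a log2 fold change of 3.37, and the paired chromosome differences were 0.181 (SE 0.0607) and -0.0929 (SE 0.0591). No named gene or chromosome value turned its direction under any alternative run. Medians of the neuron, astrocyte, muscle, endothelial, imprinted and study lineage lists changed sign under at least 1 alternative, and those of squamous epithelium, myelinating glia, cilia, Hox genes and mitosis did not.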
